A study of Mus musculus with 2 samples.

Results

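The mouse Ifitm genes encode small interferon-induced transmembrane proteins. Ifitm1, Ifitm2, Ifitm3, Ifitm6 and Ifitm10 were taken by symbol from the feature list of a single-cell RNA sequencing matrix, where each symbol matched 1 row, and they make up 5 of the 32285 genes measured. They were chosen with their levels in these cells already known, so the levels below are a description and carry no test. The values behind that choice were their UMI counts in mast cells, macrophages and fibroblasts. A UMI (unique molecular identifier) is a random tag that lets sequencing copies of the same captured RNA molecule be counted a single time.

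The study grew colonies from the aorta of mice. Aortas of 2 male C57BL/6J mice, 12 weeks old, were flushed, freed of fat and digested with Liberase, and the cells were kept in methylcellulose for 14 days, so that the thick medium held the progeny of each progenitor together as a colony. Colonies labelled CFU-M (colony-forming unit, macrophage) were dispersed, and DAPI-excluding viable cells were sorted for a droplet kit that reads the ends of transcripts. All of the cells were in 1 gene expression library with no treatment group, and the labels give no key from cell to mouse, so a spread between animals cannot be given.

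Ifitm proteins sit in the plasma membrane and in endosomes, where they hinder the fusion of enveloped viruses with the host membrane. Ifitm3 acts mainly in late endosomes and lysosomes, Ifitm1 mainly at the cell surface, and Ifitm2 is closely related to Ifitm3. Many cells raise these genes in response to interferons through the factors that bind the ISRE and GAS motifs, and stem and progenitor cells are known to hold some of them without interferon. Ifitm6 is known from mouse myeloid cells, and Ifitm10 is a more distant relative whose function is not well understood.

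Ifitm1, Ifitm2, Ifitm3 and Ifitm6 lie next to each other on mouse chromosome 7 (GRCm38, GENCODE annotation). Ifitm2 (ENSMUSG00000060591) is at 140954837 to 140955987 on the minus strand, Ifitm1 (ENSMUSG00000025491) at 140967221 to 140969825 on the plus strand, Ifitm3 (ENSMUSG00000025492) at 141009586 to 141010770 on the minus strand and Ifitm6 (ENSMUSG00000059108) at 141015699 to 141017924 on the minus strand. Ifitm10 (ENSMUSG00000045777) is away from them on the same chromosome, at 142325837 to 142373753 on the minus strand. The annotation places Gm45717 over Ifitm2 and Gm49369 over Ifitm10 on the same strand, and neither is in the matrix.

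The promoter sequences of the 4 clustered genes are shown because these neighbours differed so widely between cell types. They are RefSeq promoters of GRCm38.p6, read along the gene from base -250, counted from the RefSeq transcript start, up to the base before the next exon of the GENCODE annotation in that window. For Ifitm1 and Ifitm6 longer annotated transcripts start further upstream, so these 2 stretches lie inside the annotated genes, between exons. For Ifitm3 and Ifitm6 a run of 30 bases at the start is given as well. Capitals mark matches to the ISRE core (GAAA, any 2 bases, GAAA) and to the GAS motif (TTCNNNGAA), searched on both strands in 300 bases per promoter.
Ifitm1, chr7:140967826-140968027, plus strand, bases -250 to -49: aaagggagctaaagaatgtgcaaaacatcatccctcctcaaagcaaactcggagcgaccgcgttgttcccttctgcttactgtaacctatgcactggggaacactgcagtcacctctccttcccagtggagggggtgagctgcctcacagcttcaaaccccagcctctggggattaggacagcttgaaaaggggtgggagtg
Ifitm2, chr7:140955988-140956211, minus strand, bases -250 to -27: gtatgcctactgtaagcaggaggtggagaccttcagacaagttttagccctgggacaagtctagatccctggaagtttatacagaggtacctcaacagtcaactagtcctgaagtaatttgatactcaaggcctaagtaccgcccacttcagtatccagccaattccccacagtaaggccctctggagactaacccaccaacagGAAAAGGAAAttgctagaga
Ifitm3, chr7:141010771-141010994, minus strand, bases -250 to -27: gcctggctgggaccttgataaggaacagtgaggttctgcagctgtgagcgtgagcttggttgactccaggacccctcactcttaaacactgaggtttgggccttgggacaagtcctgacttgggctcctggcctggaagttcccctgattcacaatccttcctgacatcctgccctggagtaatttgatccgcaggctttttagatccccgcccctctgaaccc
Ifitm3, chr7:141010715-141010744, minus strand, bases 1 to 30: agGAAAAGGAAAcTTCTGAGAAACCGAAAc
Ifitm6, chr7:141016909-141017142, minus strand, bases -250 to -17: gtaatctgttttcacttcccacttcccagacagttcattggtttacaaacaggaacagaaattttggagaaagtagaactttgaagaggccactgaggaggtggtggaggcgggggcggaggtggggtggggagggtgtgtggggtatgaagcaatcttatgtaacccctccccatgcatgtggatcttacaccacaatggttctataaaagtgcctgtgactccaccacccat
Ifitm6, chr7:141016879-141016908, minus strand, bases -16 to 14: atgaacTTCCTTGAAacaagagcttccttg

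The ISRE core was found once in the Ifitm2 promoter, at bases -46 to -37, and at 2 places in that of Ifitm3, at bases 3 to 12 and 20 to 29. A GAS match lay at bases 14 to 22 of Ifitm3, where it shares bases 20 to 22 with the second ISRE core, and another at bases -10 to -2 of Ifitm6. The promoter of Ifitm1 and the 3 RefSeq promoters of Ifitm10 held neither. Of 32851 promoters of the same length, 3.44% held the ISRE core and 8.30% the GAS motif. A match is a run of letters, and no binding was measured here.

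After filters and removal of called doublets, 29285 of 34813 barcodes were kept, all barcodes being distinct, with a median of 12485 gene UMIs and 3424 genes per cell. The barcodes held 501 to 243243 UMIs each. Clusters were named from markers with every Ifitm gene left out of the clustering, and a name such as mast cell-like rests on those markers alone. Mast cell-like cells made up 73.0% of the kept cells (21379 cells), fibroblast-like cells 17.5% (5138) and macrophage-like cells 8.70% (2548), while 220 cells stayed unnamed. The label of macrophage colony progenitors thus covered a majority of cells with mast cell markers: 7 of 7 mast cell markers passed in the 3 largest mast cell-like clusters, and 7 of 7 macrophage markers passed in a single cluster. The matrix also holds UMIs of 3 MULTI-seq tags, lipid-anchored oligonucleotides that mark a cell suspension, named Cafum, Matrigel and Macrophages. The Cafum tag alone was called on 15920 of the mast cell-like cells, the Macrophages tag alone on 1863 of the macrophage-like cells and the Matrigel tag alone on 2530 of the fibroblast-like cells. Among cells called for a single tag, class and tagged suspension thus nearly coincide. Where they do, differences between classes and between suspensions cannot be told apart. More than 1 tag was called on 1182 fibroblast-like cells, and no tag on 1071 of that class and on 4530 mast cell-like cells. Within the cells called for Cafum alone, 15920 mast cell-like and 312 fibroblast-like cells held Ifitm3 at 83.7 and 865 CPM (UMIs of the gene per 1000000 gene UMIs) and Ifitm1 at 41.3 and 19.4 CPM. Although the labels name male mice, Xist, the transcript of the inactive X chromosome, stood at 378 CPM in the mast cell-like class, 350 CPM in the macrophage-like one and 712 CPM in the fibroblast-like one, with a UMI in 65.0%, 58.8% and 82.2% of cells, and the Y-linked Ddx3y at 18.6, 54.3 and 30.9 CPM. Whether all suspensions came from the mice of the labels was not tested.

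Ifitm3, the member best known for blocking virus entry from endosomes, was low in mast cell-like cells and high in the other classes. Its level was 87.1 CPM (95% exact Poisson interval 86.0 to 88.1) in mast cell-like cells, and it reached 964 CPM (952 to 976) in the macrophage-like class and 1197.5 CPM (1192 to 1203) in the fibroblast-like class. Macrophage-like cells thus held 11.1 times the mast cell-like level (interval of the ratio 10.9 to 11.3) and fibroblast-like cells 13.8 times (13.6 to 13.9). These and all later intervals cover counting error only, since cells of 1 library are not replicates. The depth differed, with medians of 11313 UMIs per mast cell-like cell, 8452.5 per macrophage-like cell and 31026 per fibroblast-like cell. When every cell was thinned to 5500 UMIs, 32.3% of mast cell-like cells (exact Clopper-Pearson interval 31.7 to 33.0), 93.0% of macrophage-like cells (91.7 to 94.0) and 97.4% of fibroblast-like cells (96.9 to 97.8) had an Ifitm3 UMI. Without thinning the shares were 52.2%, 95.6% and 98.9%. The thinning left out 1449, 559 and 187 shallower cells of these classes.

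Ifitm6 was a macrophage-like transcript. It stood at 39.6 CPM (37.2 to 42.1, 1024 UMIs) in macrophage-like cells, at 1.07 CPM (0.921 to 1.24, 177 UMIs) in fibroblast-like cells and at 0.394 CPM (0.325 to 0.473, 114 UMIs) in mast cell-like cells. The macrophage-like level was 101 times the mast cell-like level (82.8 to 123) and 36.9 times the fibroblast-like level (31.4 to 43.6). Of thinned cells, 18.2% of macrophage-like cells had an Ifitm6 UMI, against 0.364% of fibroblast-like and 0.211% of mast cell-like cells, and without thinning the shares were 24.3%, 3.06% and 0.515%. Even in macrophage-like cells the gene was seen as few molecules, at most 5 in a thinned cell.

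Ifitm10 followed the same order at low levels, with 27.2 CPM (25.2 to 29.3) in macrophage-like cells, 3.10 CPM (2.83 to 3.38) in fibroblast-like cells and 2.12 CPM (1.96 to 2.30) in mast cell-like cells. Its macrophage-like level was 12.8 times the mast cell-like one (11.5 to 14.3) and 8.78 times the fibroblast-like one (7.82 to 9.86). A UMI was present in 9.50% of thinned macrophage-like cells, 1.82% of fibroblast-like and 1.14% of mast cell-like cells (12.5%, 7.84% and 2.67% without thinning).

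Ifitm1 was highest in mast cell-like cells. They held 45.9 CPM (45.2 to 46.7), macrophage-like cells 14.7 CPM (13.3 to 16.3) and fibroblast-like cells 12.4 CPM (11.8 to 12.9). The ratio to mast cell-like cells was 0.320 (0.288 to 0.354) for the macrophage-like class and 0.269 (0.257 to 0.282) for the fibroblast-like class. An Ifitm1 UMI was present in 6.61% of thinned mast cell-like cells, 3.07% of macrophage-like and 4.67% of fibroblast-like cells, and in 9.88%, 5.57% and 15.7% without thinning. With clusters at resolution 1.0 the macrophage-like class held 5.51 CPM and the mast cell-like class 46.2 CPM, so the macrophage-like level of Ifitm1 depends on how that class is cut. The higher unthinned share of the fibroblast-like cells went with their greater depth and against the order of the CPM.

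Ifitm2 was the member spread most evenly. It reached 1087.7 CPM (1083.9 to 1091.5) in mast cell-like cells, against 1034.7 CPM (1029.8 to 1039.7) for fibroblast-like cells and 907 CPM (895 to 918) in macrophage-like cells, and 97.3% to 98.1% of thinned cells of the 3 classes had a UMI (97.3% to 99.3% without thinning). The order of mast cell-like and fibroblast-like cells was not stable for this gene, since classes set by the tag alone gave 1074 CPM for Cafum and 1074.4 CPM for Matrigel cells. Of windows of 75 bases in the last 500 bases of the Ifitm2 transcript, 32.6% also occur in transcripts of other annotated genes, so that its count is uncertain where reads could be assigned to several genes. The share was 1.41% for Ifitm1, 0.939% for Ifitm3 and 0 for Ifitm6 and Ifitm10. Among the genes that share windows with Ifitm2 is Gm45717, which overlaps it and is not in the matrix. How much of the 32.6% is due to Gm45717 was not computed.

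**Figure D1:**
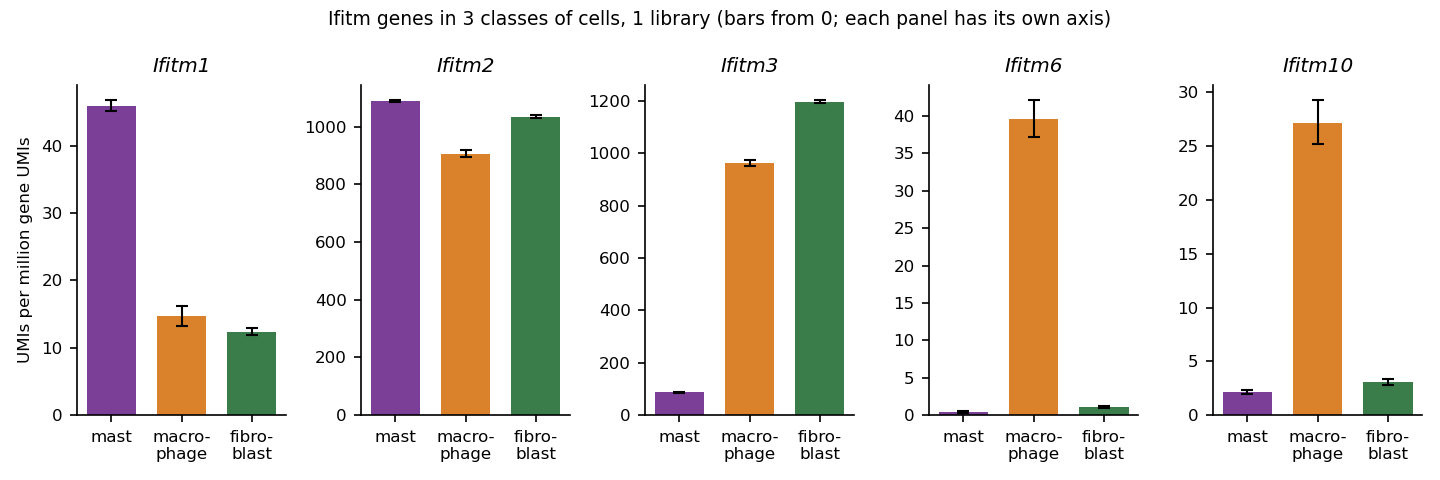
Level of the 5 Ifitm genes (UMIs per 1000000 gene UMIs, bars from 0, each panel with its own axis) by class (mast, macrophage and fibroblast, each named from markers), with exact 95% Poisson intervals as black bars. Ifitm3 is at 87.1 in mast cell-like cells against 964 and 1197.5, Ifitm6 and Ifitm10 stand out in macrophage-like cells, Ifitm1 is highest in mast cell-like cells and Ifitm2 differs little.

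Macrophage-like against mast cell-like cells, 3 of the 5 Ifitm genes (Ifitm3, Ifitm6, Ifitm10) were at least 2-fold higher and 1 (Ifitm1) at least 2-fold lower. In that comparison 18.9% of the 8803 genes with at least 10 CPM in either class were at least 2-fold higher and 12.8% at least 2-fold lower. In fibroblast-like against mast cell-like cells 3 Ifitm genes reached the floor of 10 CPM, of which Ifitm3 was at least 2-fold higher and Ifitm1 at least 2-fold lower. There 23.2% of 9445 genes were higher and 16.2% lower by that rule. These shares are the background of the class comparison, and since the Ifitm genes were picked for their levels nothing further is read from their counts.

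Mast cell RNA was present in droplets of the other classes, and its amount bears on Ifitm1. The 7 mast cell markers, among them the chymase gene Cma1 and the carboxypeptidase gene Cpa3, stood in macrophage-like cells at 0.272 to 0.352 of their mast cell-like level, with Cma1 at 6547 CPM against 21277 CPM. The Ifitm1 ratio of 0.320 lies within that range at the main resolution, and the range at resolution 1.0 was not computed. In fibroblast-like cells the markers stood at 0.121 to 0.142, and Ifitm1 at 0.269 lies above it. Less the mast cell-like level times the median marker ratio, Ifitm1 was at 0.487 CPM in the macrophage-like class and at 6.09 CPM in the fibroblast-like class. The same subtraction left Ifitm3 at 937 and 1185.5 CPM, Ifitm2 at 570 and 886 CPM, and Ifitm6 at 39.5 and 1.02 CPM in these classes. The total was not rescaled after the subtraction. These remainders are therefore parts of the former total and cannot be set directly against the mast cell-like levels.

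The low Ifitm3 level of mast cell-like cells was above what the markers of the other classes showed there. Macrophage markers, among them Csf1r and the complement genes C1qa to C1qc, stood in mast cell-like cells at 0.00285 to 0.0179 of their macrophage-like level, while Ifitm3 stood at 0.0903. Fibroblast markers stood at 0.0139 to 0.0266 of their fibroblast-like level, while Ifitm3 stood at 0.0727. Ifitm6 in mast cell-like cells, at 0.00994 of its macrophage-like level, lay within the range of the macrophage markers, but that range is set at its upper end by Cd68 alone. The other 6 markers stood at 0.00285 to 0.00664, below Ifitm6. Whether mast cell-like cells hold Ifitm6 RNA of their own was not tested. In fibroblast-like cells the macrophage markers stood at 0.00514 to 0.0270 of their macrophage-like level and Ifitm6 at 0.0271.

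Within macrophage-like cells the tags split the Ifitm levels. Cells called for the Macrophages tag alone (1863 cells) held Ifitm3 at 1159 CPM, Ifitm6 at 47.9 CPM and Ifitm10 at 33.3 CPM. Cells called for more than 1 tag (610) held 643, 25.8 and 16.8 CPM, and their Cma1 level was 12576 CPM against 3060 CPM. Cells of the single tag thus had 1.80 times the Ifitm3 (1.75 to 1.86), 1.85 times the Ifitm6 (1.60 to 2.15) and 1.98 times the Ifitm10 level (1.66 to 2.39). Ifitm1 went the other way, at 10.3 against 19.8 CPM, by a smaller factor than Cma1. The macrophage marker C1qa was also higher with the single tag, at 2931.6 against 1374.5 CPM, so such a difference is not particular to the Ifitm genes. The part of mast cell RNA in the differences of Ifitm1, Ifitm3, Ifitm6 and Ifitm10 was not tested. Ifitm2 was at 886 and 946 CPM.

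Macrophage-like cells were also split by a UMI of Lyve1, the hyaluronan receptor of resident vascular macrophages, after thinning. The 1211 cells with Lyve1 held Ifitm3 at 1197 CPM, Ifitm6 at 50.7 CPM and Ifitm10 at 40.7 CPM, and the 778 cells without it 813, 33.4 and 9.58 CPM. Ifitm1 went the other way, at 6.46 CPM with and 25.9 CPM without Lyve1. These are 43 UMIs in 29 cells and 111 UMIs in 32 cells, or 2.39% and 4.11% of the cells. In the whole class 3 of 1989 cells held 41.6% of the Ifitm1 UMIs, so few cells weigh on this difference. Cma1 was at 4931 CPM in cells with Lyve1 and 6734.5 CPM in those without, and the part of mast cell RNA in these differences was not tested. The Ifitm10 difference is the larger one, with a UMI in 13.2% of cells with Lyve1 and 3.73% of cells without. A UMI of H2-Ab1, a chain of MHC class II, divided the cells with little difference in Ifitm3 and Ifitm6. Ifitm3 stood at 1052 CPM with and 1021 CPM without it and Ifitm6 at 44.2 and 42.6 CPM. Ifitm1 stood at 15.5 CPM with and 6.33 CPM without H2-Ab1 (143 and 11 UMIs), while Cma1 was at 5327 and 7277 CPM. By Ccr2, the chemokine receptor of monocyte-derived macrophages, Ifitm6 was at 57.1 CPM in 446 cells with and 40.2 CPM in 1543 cells without a UMI, and Ifitm3 at 1043 and 1048 CPM. Cma1 stood at 3991 and 6112 CPM in these cells, and its part in the Ifitm6 difference was not tested. The 133 macrophage-like cells with S or G2/M scores had a lower share of Ifitm3 among their UMIs, at 644 CPM, than the 1856 others, at 1076 CPM. Their median depths before thinning were 15670 and 9623 UMIs, so a lower CPM need not mean fewer molecules per cell.

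Among fibroblast-like cells the 2 clusters differed. Cluster 2 (5038 cells) held Ifitm3 at 1202.5 CPM and Ifitm2 at 1037 CPM, and cluster 8 (100 cells, median 5593 UMIs) held 120 and 539 CPM. Cluster 8 is named from 5 of 6 fibroblast markers, but its leading genes, such as Kctd16, Dpp6 and Nalcn, are none of them, and its Cma1 level of 9372 CPM was above the 2879.5 CPM of cluster 2. Cells called for the Matrigel tag alone (2530) held Ifitm3 at 1354 CPM and Cma1 at 1209 CPM, while those of the Cafum tag alone (312) held 865 and 7614 CPM. The fibroblast marker Col1a1 differed little between them, at 2797 and 2751 CPM. The part of mast cell RNA in this Ifitm3 difference was not tested. Thinned cells with a UMI of Dlk1, an imprinted gene of preadipocytes (421 cells), held Ifitm3 at 1207 CPM against 1282 CPM in the 4530 without. By a UMI of the complement gene C7 the levels were 1122 and 1287 CPM. Ifitm3 was also lower in the 64 cells with Adipoq, the adipocyte hormone gene, at 929 CPM against 1280.1 CPM. In each of these 6 sets 95.3% to 97.5% of cells had an Ifitm3 UMI, and Ifitm6 had at most 18 UMIs.

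Mast cell-like cells were then grouped by UMIs of Slc6a4, the serotonin transporter, and of Mrgprb1, a member of the Mas-related receptor family, after thinning. Slc6a4 alone was seen in 4331 cells, Mrgprb1 alone in 3616, both in 1656 and neither in 10327. A UMI does not by itself show expression: of thinned cells, an Slc6a4 UMI was in 30.04% of mast cell-like cells against 8.20% of macrophage-like and 5.98% of fibroblast-like ones. For Mrgprb1 the shares were 26.5%, 12.4% and 7.59%, at median depths before thinning of 11934, 9873 and 31668 UMIs. How many cells of the groups hold such a background UMI was not tested. Ifitm1 stood at 67.5 CPM (64.3 to 70.9) in cells with Slc6a4 alone, at 57.2 CPM in cells with neither, at 48.5 CPM in cells with both and at 38.5 CPM (35.8 to 41.3) in cells with Mrgprb1 alone. The ratio of Mrgprb1-only to Slc6a4-only cells was 0.570 (0.523 to 0.622). The share of cells with an Ifitm1 UMI differed less, at 7.02%, 6.86%, 6.28% and 5.56% in the same order. Without the cells of 12 or more Ifitm1 UMIs, an alternative chosen after seeing the data that removes cells by the measure itself, the ratio was 0.761 (0.674 to 0.858).

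Ifitm2 was lower in the groups with a Mrgprb1 UMI than in those without. It stood at 1221 CPM (1207 to 1235) in Slc6a4-only cells and 1211.8 CPM in cells with neither, against 937 CPM in cells with both and 954 CPM (941 to 968) in Mrgprb1-only cells. The ratio of Mrgprb1-only to Slc6a4-only cells was 0.782 (0.768 to 0.796), and it stayed below 1 under all 14 alternatives tried, from 0.728 to 0.951. The interval of the highest, 0.886 to 1.02, includes 1. Ifitm2 was broadly distributed over cells, with a median of 6 UMIs in Slc6a4-only and 5 in Mrgprb1-only cells.

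Ifitm3 differed little between these groups, at 93.8 CPM (89.9 to 97.8), 97.2, 85.6 and 84.4 CPM (80.4 to 88.5) in cells with Slc6a4 alone, neither, both and Mrgprb1 alone. Its ratio was 0.900 (0.844 to 0.959), and the share of cells with a UMI lay between 31.6% and 33.2%. Ifitm6 counted 11 UMIs in Slc6a4-only and 9 in Mrgprb1-only cells, a ratio of 0.980 (0.359 to 2.60), which shows only that a difference was not detectable at this depth. Ifitm10 stood at 2.02 and 2.46 CPM, a ratio of 1.22 (0.804 to 1.86). None of the 3 members with at least 10 CPM (Ifitm1, Ifitm2, Ifitm3) was 2-fold apart between Mrgprb1-only and Slc6a4-only cells, where 0.994% of 7747 genes were at least 2-fold higher and 0.207% at least 2-fold lower.

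The groups differed in more than these receptors. Cells in S or G2/M made up 20.1% of Slc6a4-only, 34.2% of neither, 10.3% of both and 14.7% of Mrgprb1-only cells. Cluster 0, whose leading genes include Mrgprb1 and Mrgprb2, held 69.8% of Mrgprb1-only and 25.3% of Slc6a4-only cells, and cluster 1, led by Atp8a2, Ifitm1 and the cathepsin gene Ctsg, held 10.4% and 44.0%. Xist stood at 643 CPM in Mrgprb1-only and 300.0 CPM in Slc6a4-only cells, and at 801 CPM in cluster 0 and 37.6 CPM in cluster 1. The Y-linked Ddx3y was at 12.9 and 25.5 CPM in these groups. The part of these differences in the Ifitm levels was not tested beyond the values that follow.

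Within clusters the Ifitm1 and Ifitm2 differences held in part, and that of Ifitm3 did not. In cluster 0, Mrgprb1-only and Slc6a4-only cells held Ifitm1 at 40.1 and 63.8 CPM, in cluster 1 at 66.7 and 99.1 CPM, and in cluster 3 at 18.0 and 19.5 CPM. Ifitm2 stood at 897 and 1199.9 CPM in cluster 0, 1143 and 1293 CPM in cluster 1 and 1146.5 and 1246 CPM in cluster 3, but at 993 and 968 CPM in cluster 6. Ifitm3 was lower in Mrgprb1-only cells in cluster 1 (117 and 121 CPM) and higher in clusters 0, 3, 5 and 6, where it stood at 79.7 and 78.4, 86.5 and 72.4, 73.4 and 58.5, and 90.1 and 59.3 CPM.

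The groups were also compared within 4 sets of cells by sex chromosome transcripts. In cells with a Xist UMI and no UMI of 4 Y-linked genes the ratio of Mrgprb1-only to Slc6a4-only cells was 0.666 for Ifitm1, 0.758 for Ifitm2 and 0.985 for Ifitm3. In cells with a Y-linked and no Xist UMI, 155 Mrgprb1-only and 733 Slc6a4-only cells, Ifitm1 stood at 75.1 and 64.5 CPM, a ratio of 1.16 (0.871 to 1.54), and Ifitm3 at 85.6 and 77.1 CPM, a ratio of 1.11 (0.848 to 1.44). The Ifitm2 ratio there was 0.951 (0.886 to 1.02). The direction for Ifitm1 and Ifitm3 did not hold in that set, and the intervals of all 3 genes include 1. In cells with neither kind of transcript, 506 Mrgprb1-only and 1663 Slc6a4-only cells, Ifitm1 stood at 24.1 and 69.9 CPM, Ifitm2 at 1034.5 and 1241.5 CPM and Ifitm3 at 109 and 119.8 CPM. In cells with both kinds, 193 and 192 cells, Ifitm1 stood at 17.0 and 118 CPM, Ifitm2 at 872 and 1143 CPM and Ifitm3 at 96.1 and 54.9 CPM. These Ifitm1 levels rest on 18 and 125 UMIs in 14 and 19 cells. Ifitm2 was thus lower in Mrgprb1-only cells in each of the 4 sets, Ifitm1 in 3 and Ifitm3 in 2.

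Over the number of Mrgprb1 UMIs the level of Ifitm2 was lower step by step. It stood at 1214.5 CPM in the 14658 cells with none, then at 1102, 1010, 951 and 856 CPM with 1, 2, 3 and 4 UMIs, and at 766 CPM in the 1564 cells with 5 or more, which is 0.631 (0.615 to 0.646) of the first value. Over Slc6a4 UMIs it stayed between 1077 and 1158 CPM up to 4 UMIs and was 918 CPM in the 59 cells with 5 or more. Ifitm1 showed no such series: it was between 56.9 and 65.2 CPM with 0 to 2 Mrgprb1 UMIs, at 29.1 and 31.9 CPM with 3 and 4, and at 18.7 CPM with 5 or more. Over Slc6a4 UMIs it was 52.3, 64.4 and 73.5 CPM with 0, 1 and 2 UMIs, and 18.9, 22.9 and 24.7 CPM with 3, 4 and 5 or more, in 365, 103 and 59 cells. These last 3 values rest on 38, 13 and 8 Ifitm1 UMIs in 18, 3 and 6 cells. The share of cells with an Ifitm1 UMI was 4.93%, 2.91% and 10.2% there, against 6.52% without Slc6a4, so the low levels are uncertain. Ifitm3 ranged from 96.2 CPM without Mrgprb1 to 73.8 CPM with 5 or more UMIs.

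**Figure D2:**
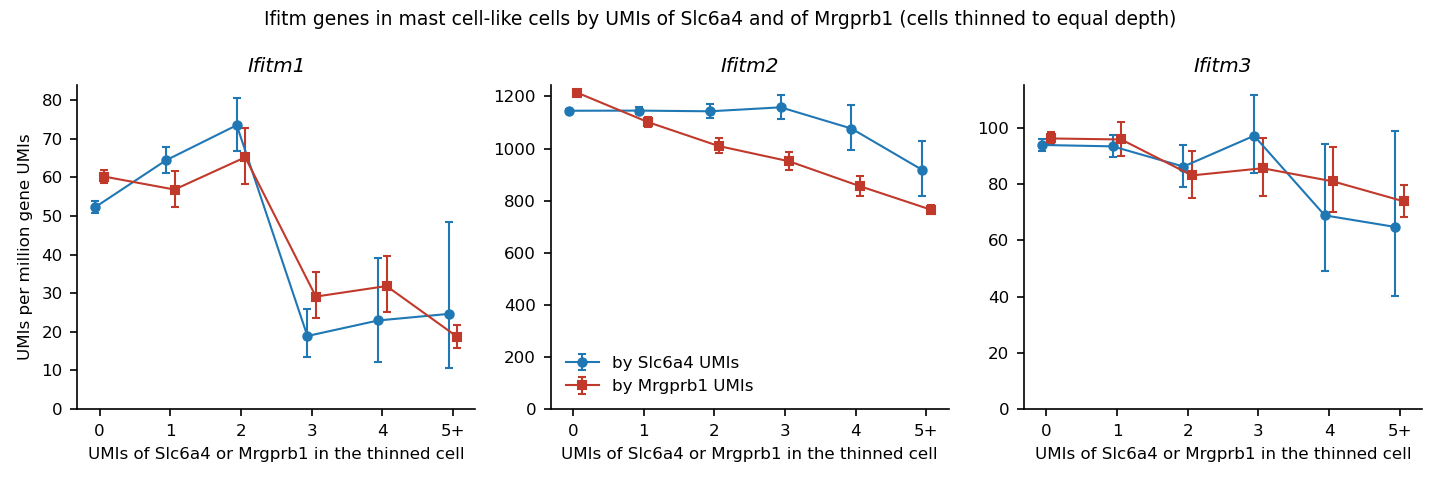
Levels of Ifitm1, Ifitm2 and Ifitm3 (UMIs per 1000000 gene UMIs, axes from 0) in thinned mast cell-like cells by the number of Slc6a4 UMIs (blue circles) or Mrgprb1 UMIs (red squares) in the cell, with exact 95% Poisson intervals. Ifitm2 goes from 1214.5 to 766 over Mrgprb1 UMIs, while the level of Ifitm1 is low in cells with 3 or more UMIs of either gene. For Slc6a4 these points rest on 38, 13 and 8 Ifitm1 UMIs.

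The intervals of Ifitm1 understate the spread between cells, because few mast cell-like cells held most of its UMIs. Of 19930 thinned cells 18613 had none and 645 had 1, while 143 cells (0.718%, 0.605 to 0.845) had 12 or more and held 50.1% of all Ifitm1 UMIs. The top 200 cells, 1% of the class, held 59.4%, and the highest cell had 56 UMIs. The variance over the mean was 15.1 for Ifitm1, against 3.03 for Ifitm2 and 2.14 for Ifitm3. Ifitm2 had a median of 5 UMIs and its top 1% of cells held 4.29%, and for Ifitm3 they held 13.7%. In macrophage-like cells 3 of 1989 and in fibroblast-like cells 2 of 4951 had 12 or more Ifitm1 UMIs.

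The cells with 12 or more Ifitm1 UMIs were 0.947% of Slc6a4-only cells (0.680 to 1.28, 41 cells), 0.755% of cells with neither (78), 0.543% of cells with both (9) and 0.415% of Mrgprb1-only cells (0.232 to 0.683, 15 cells). By cluster they were 1.14% of cluster 1, 0.818% of cluster 0, 0.398% of cluster 3, 0.159% of cluster 5 and 0.135% of cluster 6. They were thus found in every mast cell-like cluster.

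These cells differed in other genes that the grouping did not use. From none over 1, 2 to 3, 4 to 11 and 12 or more Ifitm1 UMIs, Ifitm3 stood at 90.0, 114, 105, 185 and 216 CPM, and Ifitm2 at 1132, 1230, 1283, 1425 and 1568 CPM. Cells with 12 or more held 2.40 times the Ifitm3 (2.05 to 2.79) and 1.38 times the Ifitm2 level (1.31 to 1.46) of cells with none. Ly6a, the gene of the progenitor surface antigen Sca-1, went from 657 to 1373 CPM over the same steps. Mcpt4, a chymase stored in granules of connective tissue mast cells, went from 10787 to 5996 CPM and Mrgprb1 from 186 to 69.9 CPM, while Cma1 stayed between 21787 and 23305 CPM and Slc6a4 between 68.8 and 84.0 CPM. Ly6a, Mcpt4, Cma1 and Xist were looked at after earlier results were known. The cells of 12 or more were less deep (median 9327 against 11972 UMIs), less often in S or G2/M (10.5% against 26.1%) and more often without a tag (32.9% against 19.4%). They were also more often in cluster 1 (45.5% against 28.1%), which has Ly6a among its leading genes, and in cluster 0 (40.6% against 35.4%). The part of depth, phase, tag and cluster in the gene differences was not tested. Xist was at 420 and 399 CPM.

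**Figure D3:**
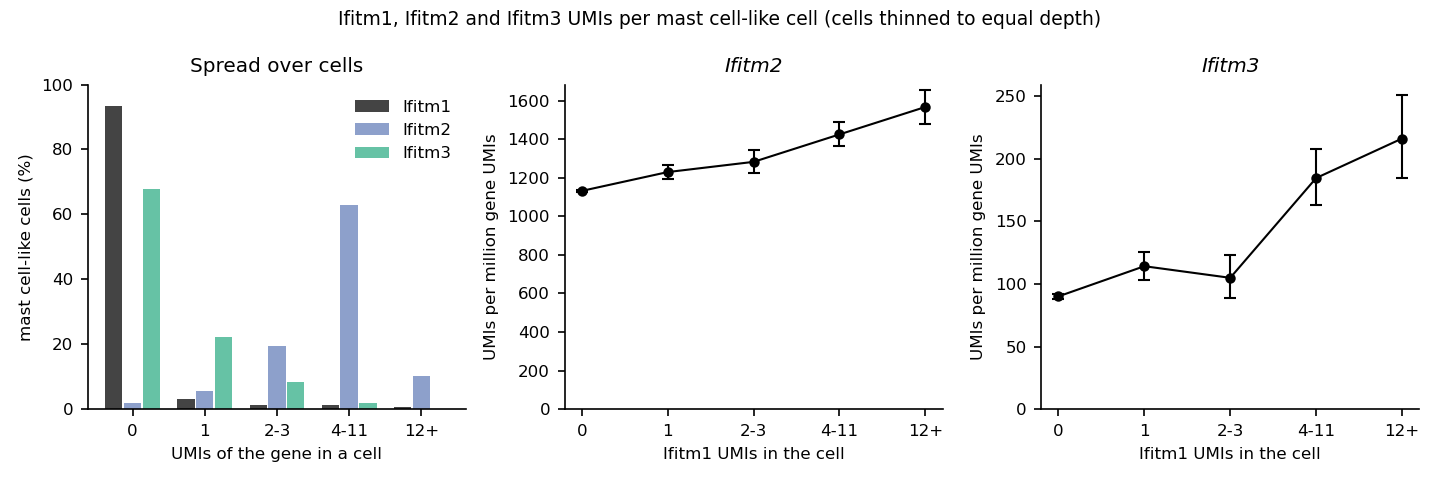
Left, the share of thinned mast cell-like cells (%) with 0, 1, 2 to 3, 4 to 11 and 12 or more UMIs of Ifitm1, Ifitm2 and Ifitm3. Middle and right, the level of Ifitm2 and Ifitm3 (UMIs per 1000000 gene UMIs, axes from 0, exact 95% Poisson intervals) by the Ifitm1 UMIs of the cell: Ifitm3 is at 90.0 in cells with none and 216 in cells with 12 or more.

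Between the mast cell-like clusters Ifitm1 varied most. It stood at 73.3 CPM in cluster 1, 56.7 in cluster 0, 29.4 in cluster 3, 20.6 in cluster 5, which is led by mitosis genes, and 13.6 in cluster 6, which is led by histone genes. Ifitm2 lay between 964 CPM (cluster 5) and 1245 CPM (cluster 1), and Ifitm3 between 64.8 CPM (cluster 6) and 122 CPM (cluster 1). Cluster 1 was thus the highest mast cell-like cluster for each of these 3 genes. Ifitm6 stayed between 0.163 and 0.457 CPM and Ifitm10 between 1.09 and 3.46 CPM.

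Non-cycling mast cell-like cells (14824) held Ifitm1 at 65.1 CPM and those in S or G2/M (5106) at 27.0 CPM, a ratio of 2.41 (2.24 to 2.61). For Ifitm2 the values were 1177 and 1049 CPM, a ratio of 1.12, and for Ifitm3 99.0 and 76.3 CPM, a ratio of 1.30. The CPM of these 3 genes was lower in cycling cells, that of Ifitm1 by the largest factor. Median depths before thinning were 10448 UMIs in non-cycling and 18876 in cycling cells, so a lower CPM need not mean fewer molecules per cell. Ifitm10 went the other way at low counts, with 1.91 CPM in non-cycling and 2.67 CPM in cycling cells, a ratio of 0.716 (0.541 to 0.957), and the Ifitm6 ratio was 1.26 (0.591 to 3.001). The thinned Ifitm1 level was 80.5 CPM in mast cell-like cells without a tag and 49.5 CPM in those called for Cafum alone, while Ifitm2 stood at 1200 and 1134 CPM.

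**Figure D4:**
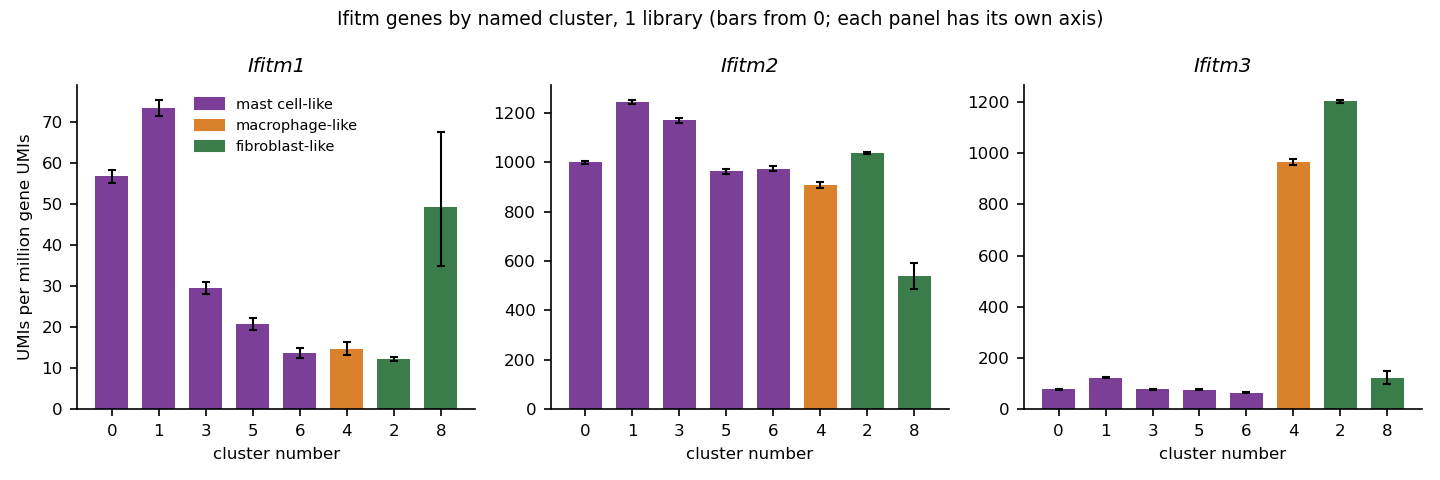
Levels of Ifitm1, Ifitm2 and Ifitm3 (UMIs per 1000000 gene UMIs, bars from 0, each panel with its own axis) in the 8 named clusters, coloured by class, with exact 95% Poisson intervals in black. Ifitm1 is highest in cluster 1 (73.3) and lowest in cluster 2 (12.2), while Ifitm3 separates clusters 4 and 2 from the mast cell-like clusters and from cluster 8.

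The genes most like each member over the 9 clusters of at least 100 cells were listed by Pearson r of log2(CPM + 1) among 5717 genes with at least 50 CPM in a cluster. For Ifitm3 these were Asah1, the lysosomal acid ceramidase (r = 0.96), Tmem176a, the neonatal Fc receptor gene Fcgrt, Tmem176b and Igfbp4 (r = 0.94). For Ifitm2 they were Capns1, a calpain subunit (0.96), Higd2a, Glmp, Pold4 and Fuca1 (0.91), and for Ifitm1 they were Gm6093 (0.92), Plscr4, Rfx7, Ncor1 and Dstyk (0.91). The clusters share 1 library and are few, so these are descriptions of 9 points.

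Many genes known to respond to interferons were also higher outside the mast cell-like class. Of 44 such genes in the matrix 35 reached 10 CPM in macrophage-like or mast cell-like cells, 21 of them at least 2-fold higher in macrophage-like cells and 0 lower, where 18.9% of all genes were higher and 12.8% lower. Their median log2 ratio was 1.45, against -0.19 over all 8803 genes. The largest folds were 98.5 for Iigp1, an immunity-related GTPase (50.4 and 0.511 CPM), 72.2 for Oas2, a sensor of double-stranded RNA (27.7 and 0.383 CPM), and 42.4 for Zbp1, a nucleic acid sensor (16.4 and 0.387 CPM). Ifitm3, at 11.1, Ifitm10, at 12.8, and Ifitm6, at 101, went in the direction of that list. Ifitm1, at 0.320, and Ifitm2, at 0.834, did not.

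In fibroblast-like against mast cell-like cells 32 of the 44 genes reached the floor, 15 at least 2-fold higher and 2 lower (23.2% and 16.2% of all genes), with a median log2 ratio of 0.60 against -0.02 over all genes. Ifi44 stood at 13.2 and 0.159 CPM (82.9-fold), Iigp1 at 28.3 and 0.511 CPM (55.3-fold) and Ifit3 at 14.2 and 0.359 CPM (39.5-fold). The 2 lower ones were Psmb8, an immunoproteasome subunit (ratio 0.405), and Usp18, which removes Isg15 from proteins (ratio 0.488). Both class comparisons share the mast cell-like cells. Between Mrgprb1-only and Slc6a4-only cells 20 of the 44 genes reached the floor and 0 were 2-fold apart in either direction. Over all genes 0.994% were higher and 0.207% lower there, so a count of 0 in so short a list shows little. The median log2 ratio of the list was -0.06 against 0.01 over all genes.

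The interferons themselves were near absent. Of 9 interferon genes none reached 10 CPM in a class, and the counts in the 3 classes were at most 7 UMIs, for Ifng in mast cell-like cells, 6 for Ifnk and 4 for Ifnb1 in macrophage-like cells. Of 13 receptor and signalling genes 12 reached the floor in both class comparisons. In macrophage-like cells 7 were higher and 2 lower than in mast cell-like cells, and the fibroblast-like class had 4 higher and 2 lower. Over all genes 18.9% and 12.8% were higher and lower in the first comparison and 23.2% and 16.2% in the second, so that the fibroblast-like counts lie near the background. The median log2 ratios of the list were 1.21 and 0.36, against -0.19 and -0.02 over all genes. Socs3, an inhibitor of cytokine signalling, Il6st, the shared receptor chain of the IL-6 family, and the interferon gamma receptor gene Ifngr1 led in macrophage-like cells with ratios of 29.3, 9.37 and 8.33. They also led in fibroblast-like cells, at 7.34, 25.2 and 3.07. Socs1 and the phosphatase gene Ptpn2, both of which restrain interferon signalling, were lower in both classes, with ratios of 0.370 and 0.473 for macrophage-like cells and of 0.183 and 0.254 for fibroblast-like ones. Between Mrgprb1-only and Slc6a4-only cells 0 of 11 genes of this list were 2-fold apart, where 0.994% of all genes were higher and 0.207% lower.

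Of 11 genes whose proteins modify or bind Ifitm proteins all reached the floor. In each of the 2 class comparisons 1 was at least 2-fold higher and 2 lower. Over all genes 18.9% were higher and 12.8% lower in macrophage-like cells, and 23.2% and 16.2% in fibroblast-like cells. These few calls are not set apart from that background, and the genes are named as a description. Cd81, a tetraspanin, was higher in macrophage-like (2.44-fold) and fibroblast-like cells (2.81-fold). Nedd4, the ubiquitin ligase that targets Ifitm3, and Cd9, another tetraspanin, were lower in macrophage-like cells with ratios of 0.371 and 0.372. In fibroblast-like cells Cd9 (0.437) and the proton pump subunit gene Atp6v0b (0.296) were lower. The median log2 ratios of the list, -0.21 and -0.24, compare with -0.19 and -0.02 over all genes. Between Mrgprb1-only and Slc6a4-only cells 0 of 11 were 2-fold apart, where 0.994% of all genes were higher and 0.207% lower.

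Of 8 other genes of the CD225 family, to which the Ifitm proteins belong, 0 reached the floor in macrophage-like against mast cell-like cells and 1 in each of the other comparisons. Between the mast cell groups this was Tmem233, at 9.20 CPM in Mrgprb1-only and 11.6 CPM in Slc6a4-only cells. In fibroblast-like against mast cell-like cells it was Syndig1, which encodes a synapse protein and stood at 36.9 CPM in fibroblast-like cells against 0.580 CPM in the mast cell-like class (63.6-fold). Ifitm5, the bone-specific relative that lies beside Ifitm2, had 337 UMIs in the kept cells and stood at 0.497 CPM in the mast cell-like class, 1.35 CPM in the macrophage-like one and 0.958 CPM in the fibroblast-like one. Ifitm7 had 94 UMIs, of which 91 were in fibroblast-like cells. Pgghg, which precedes Ifitm5 on the chromosome, stood at 9.30 CPM in the mast cell-like class, 9.98 CPM in the macrophage-like one and 8.26 CPM in the fibroblast-like one, and B4galnt4, on the far side of Ifitm6, at 0, 0 and 0.0303 CPM.

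**Figure D5:**
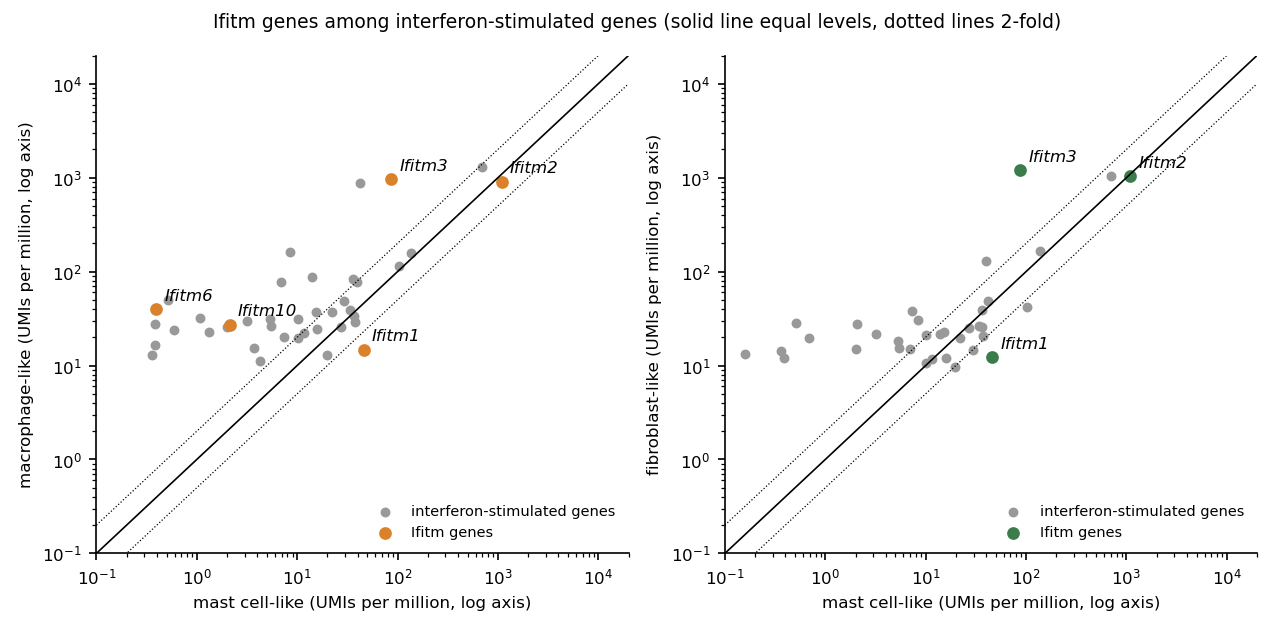
Levels in macrophage-like (left) and fibroblast-like cells (right) against mast cell-like cells (UMIs per 1000000 gene UMIs, both axes logarithmic) of the interferon-stimulated genes (grey) and Ifitm genes (coloured) with at least 10 per 1000000 in either class. The solid line marks equal levels and the dotted lines 2-fold: Ifitm3 lies above the upper dotted line in both panels, Ifitm1 below the lower one, and Ifitm2 between them.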

How the data were processed

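The authors deposited raw UMI counts per gene and cell barcode of 1 library, per the file headers made with Cell Ranger, and the submitters' processing notes name Cell Ranger 7.0.0, STAR, R 4.1.3, Seurat 4.1.1 and mm10. The counting of intronic and multi-mapped reads and of strand is not given in the sources used here. The tag library listed beside it was not analysed here. Genes, lists and markers were chosen with earlier results of these data known.

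Barcodes under 500 genes, under 1000 UMIs or above 10% mitochondrial UMIs were dropped, which left 33964, and 4679 doublets called by Scrublet in scanpy 1.11.5 (threshold 0.529) were removed. It called 13.6% of barcodes where 0.8% per 1000 barcodes gives an expected rate of 27.9%, and 610 of the 2548 macrophage-like cells kept hold more than 1 tag, so doublets remain. The remaining cells were clustered by Leiden (leidenalg 0.10.2, resolution 0.5, 2000 variable genes, 30 components) without 174 listed genes, mitochondrial and ribosomal protein genes. A cluster took the name of the list, of 16, with the highest share of passing markers (at least 50 CPM and 4 times the lowest cluster), if at least 3 markers and over 50% passed. It stayed unnamed where its 10 leading genes held more markers of another list, or at low depth with none of its own. No authors' annotation was used, and names may differ from the study's. Cells were thinned to 5500 UMIs for shares and for mast cell groups. S and G2/M calls use 42 and 52 genes. A tag was called at 2 times its background, Cafum at 1.4 times.

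Levels (CPM) come from summed counts and carry exact Poisson intervals, shares exact Clopper-Pearson intervals and ratios exact intervals on both counts (95%, scipy 1.17.1). They cover counting error only, and 1 library allows no test between groups. A call is a fold of 2 with at least 10 CPM in either group, and the fold rule was tested on simulated data. Named genes are the 5 members, of each list the up to 3 largest folds per direction past that rule, and the 5 genes most like a member. Alternatives were the group rule, thinning, doublets, mitochondrial filter, resolution, listed genes in the clustering, cell cycle, tag, weighting of cells and, added after seeing the data, high Ifitm1 cells and sex chromosome transcripts. Marker thresholds and the limit of 12 UMIs were set after seeing the data.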

Additional observations from a re-analysis of the deposited data

How the results depend on the processing

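No paired analysis was possible because 1 library holds all gene counts and its groups of cells come from the same sample. The ratio of Mrgprb1-only to Slc6a4-only mast cells moved beyond its counting interval for Ifitm1 at 3000 UMIs (0.474), without thinning (0.790), in Cafum cells (0.682), without cells of 12 or more Ifitm1 UMIs (0.761) and in cells with Xist alone (0.666), and it reversed in cells with Y-linked transcripts alone (1.16). For Ifitm2 it moved at 2 UMIs for the group call (0.728), 3000 UMIs (0.758), without thinning (0.853), at 5% mitochondrial UMIs (0.755), in non-cycling (0.756) and Cafum cells (0.797), and with Xist (0.758) or Y-linked transcripts alone (0.951). For Ifitm3 it moved without thinning (0.970), at 5% mitochondrial UMIs (0.805) and with Xist alone (0.985), and reversed with Y-linked transcripts alone (1.11). For Ifitm10 it moved at 2 UMIs for the group call (0.657). The cause was not tested. The Ifitm6 ratio, over 13 alternatives, lay between 0.631 and 1.63 and inside its counting interval, and the cells with Y-linked transcripts alone gave it no value. Of the 5 genes, 2 had their highest level in the mast cell-like class, 2 in the macrophage-like class and 1 in the fibroblast-like class. At resolution 1.0 fibroblast-like cells led for 0 genes, since Ifitm3 stood at 1248 CPM in the macrophage-like class against 1184 CPM. By tag alone mast cell-like cells led for 1 gene and fibroblast-like cells for 2. The other alternatives kept these 3 counts within 1.5 times. Depth limits Ifitm6 and Ifitm10 in mast cells, where 11 and 9 or 48 and 49 UMIs entered the ratio.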
